A study of Mus musculus with 12 samples.

Results

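Collagen chain genes encode the alpha chains that make up the collagens, the main structural proteins of the extracellular matrix. The genes were found by symbol in the deposited table: 41 of its 27912 genes carry a name of the form Col, type number, a, chain number. They were grouped by collagen type into 11 fibrillar chains (types 1, 2, 3, 5, 11, 24 and 27), 8 basement membrane chains (types 4, 15 and 18), 6 beaded filament chains (type 6) and 16 others. Collagen chains assemble in the endoplasmic reticulum as trimers of a repeating glycine-rich sequence, are secreted, trimmed and cross-linked. Fibrillar collagens form the rope-like fibres that accumulate in liver scarring, where hepatic stellate cells and portal fibroblasts are the best-known producers. Type IV collagen forms the network of basement membranes, type VI forms beaded microfilaments around cells, and the fibril-associated collagens sit on the surface of the fibres.

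RNA sequencing of polyadenylated RNA from mouse livers was used to compare CCR1-KO with WT. The CCR1-KO group (replicates 65, 66 and 67) were knockouts for CCR1, a receptor of inflammatory chemokines, and the WT group (replicates 62, 63 and 64) were wild-type C57BL/6 mice. All were male, 8 weeks old at the start, and had eaten the same diet high in fat and cholesterol with cholate (the CL diet) for 12 weeks, so no chow-fed liver enters the comparison. The labels name no tissue restriction of the knockout, and whether the groups were littermates and which part of the gene was deleted are not stated there. A further 6 libraries, labelled WT-CL and CCR1-LKO, were not analysed here.

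Between 74699391 and 79154085 reads were assigned to genes per library. Of these, 0.0839% to 0.108% came from collagen chain genes in CCR1-KO and 0.129% to 0.221% in WT. Ccr1 itself was covered by 4 to 14 reads per CCR1-KO library and by 23 to 123 reads per WT library, without overlap (adjusted p = 0.075). Scaled to library size, the groups nearly touched, at 0.234 CPM in CCR1-KO replicate 67 and 0.260 CPM in WT replicate 63. By this check WT replicate 63 was barely apart from the knockout libraries. As a check of the tissue, the hepatocyte marker list summed to 74898 to 95118 CPM in CCR1-KO and 73400.2 to 87184 CPM in WT, of which Alb made up 70.9%. Of its 10 genes Tat, Cps1 and Serpina1c rose and 7 did not pass, where 2.83% of all genes tested rose. CPM here is the read count scaled to the TMM-corrected library size, a correction for library composition. FPKM is the deposited value, scaled to gene length and library total, and is used wherever levels of different genes are compared. Each fold change is a log2 ratio, CCR1-KO divided by WT, ± its standard error (SE), with 3 libraries per group. The test was edgeR's quasi-likelihood fit of 17729 genes, with p-values adjusted by Benjamini and Hochberg's method and a threshold of 0.05.

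Transcripts of the type I and III chains and of 1 chain each of types VI, XIV and XV were lower in CCR1-KO livers. The most abundant collagen transcript of the liver, Col18a1, did not pass the test. Of 35 collagen chain genes with enough reads to be tested, 6 fell (Col3a1, Col1a2, Col1a1, Col15a1, Col6a3 and Col14a1), 1 rose (Col11a2) and 28 did not pass. Of all genes tested, 3.61% fell and 2.83% rose. The median log2 fold change was -1.17 over the 35 genes and 0.00 over all genes, and the value was negative for 27 of the 35, against 8839 of all 17729. The groups did not overlap, with CCR1-KO below WT, for 18 of the 35, where 17.4% of all genes did so, and with CCR1-KO above WT for 4, where 15.2% of all genes did so. At an unadjusted p under 0.05, 18 of the 35 were lower, where 13.2% of all genes were, and 2 were higher, where 11.3% of all genes were. The other 6 genes (Col2a1, Col6a4, Col9a1, Col9a2, Col10a1 and Col22a1) had at most 12 reads in any library and were not tested. Calls near the threshold were fragile: DESeq2 called 16 of the 35 lower (7.70% of all genes) and 2 higher (6.67% of all genes), while edgeR without WT replicate 64 called 2 lower, Col3a1 and Col1a2 (0.579% of all genes). Without CCR1-KO replicate 66 edgeR called 0 (0.996% of all genes were lower). At an unadjusted p under 0.05 that fit had 18 lower, with 10.2% of all genes, and 1 higher, with 8.43% of all genes. The number of members called lower was 2 without CCR1-KO replicate 67 (1.19% of all genes), 6 without CCR1-KO replicate 65 (7.67%), 2 without WT replicate 62 (0.655%) and 1 without WT replicate 63 (0.361%). The labels do not say that replicates came from separate animals, so the p-values measure the spread between these libraries.

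**Figure D1:**
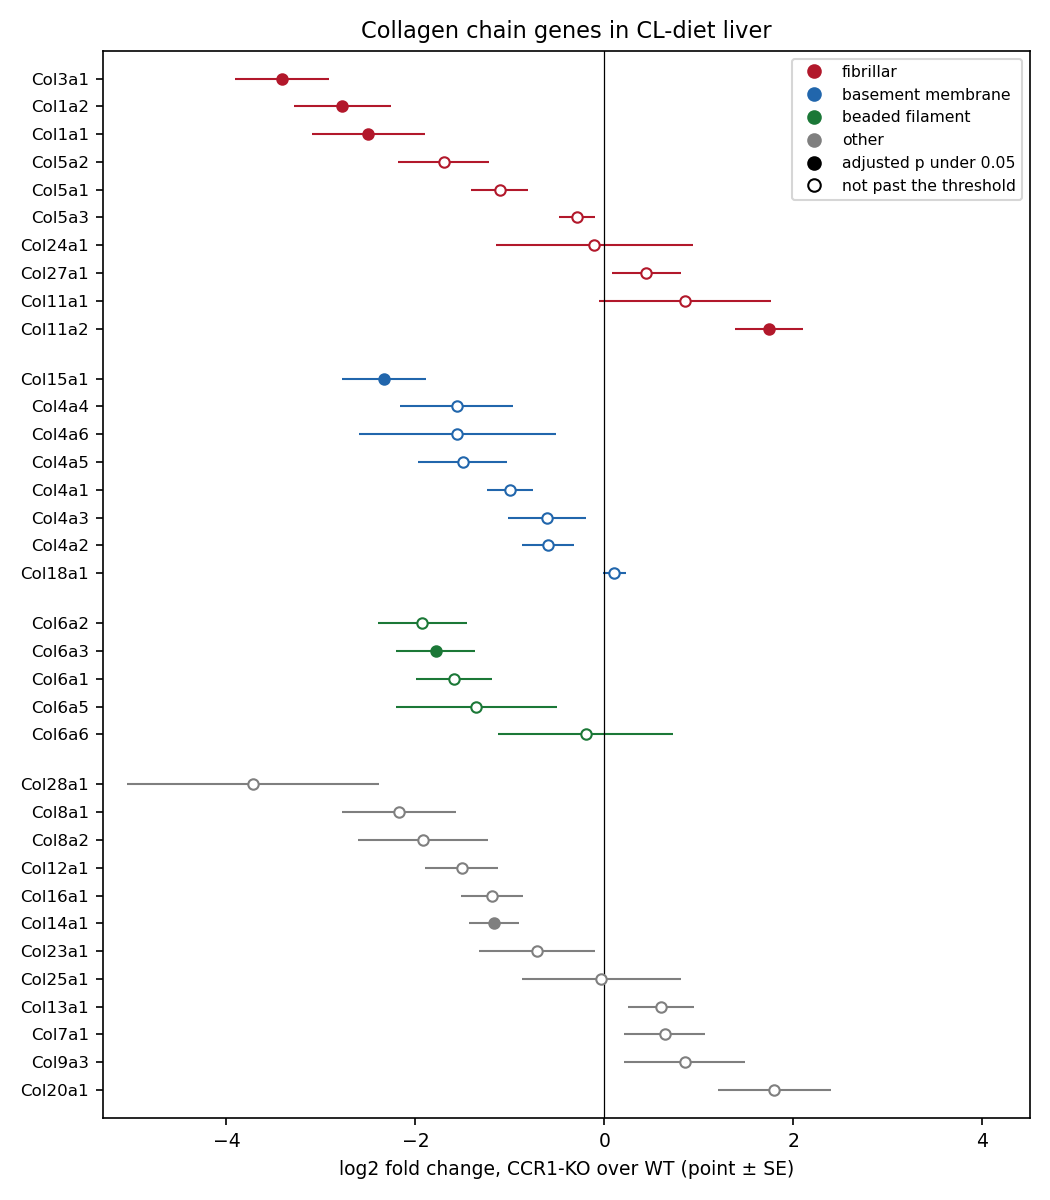
Log2 fold change of CCR1-KO over WT on the horizontal axis for the 35 collagen chain genes tested, sorted within the 4 classes, with bars for ± SE. Filled points passed an adjusted p of 0.05. Col3a1, at -3.41, lies farthest left among the filled points, and Col11a2, at 1.74, is the filled point right of 0.

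The chains of type I and type III collagen, which build the fibres of scar tissue, had the largest falls among the called genes. Col3a1 (ENSMUSG00000026043, chromosome 1, 45311538 to 45349706, plus strand, GRCm38) encodes the single chain of type III collagen. It had 20.9, 12.8 and 14.7 CPM in CCR1-KO replicates 65, 66 and 67, against 89.7, 111.2 and 313 CPM in WT replicates 62, 63 and 64. The groups were far apart, and WT replicate 64 stood well above the other WT libraries. Col3a1 fell (log2 fold change -3.41 ± 0.49, adjusted p = 0.013), to 9.40% of the mean of the WT libraries. The call was lost in 1 of the 6 fits that left out a library, at an adjusted p of 0.053 without CCR1-KO replicate 66. The 250 bases before its start are shown here, and those of Col11a2 further on, because these genes had the largest fall and the one rise among the calls. The sequences are from RefSeq (GRCm38.p6), written 5′ to 3′ on the gene's strand, and no annotated exon of GENCODE M21 overlaps them. Capitals mark TATAAA and CATTCC, the core of the element bound by TEAD factors.

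Col3a1, chr1:45311288-45311537, plus strand: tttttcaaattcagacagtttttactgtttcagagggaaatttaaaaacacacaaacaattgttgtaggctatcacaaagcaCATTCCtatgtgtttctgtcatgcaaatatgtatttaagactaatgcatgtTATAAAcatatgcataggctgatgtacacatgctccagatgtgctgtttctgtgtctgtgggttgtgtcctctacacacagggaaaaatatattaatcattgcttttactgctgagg

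Type I collagen is a trimer of chains from Col1a1 and Col1a2, genes on different chromosomes. Col1a1 (ENSMUSG00000001506, chromosome 11, 94936224 to 94953042, plus strand) had 15.0, 14.4 and 12.1 CPM in CCR1-KO replicates 65, 66 and 67, against 27.7, 45.9 and 160.7 CPM in the WT replicates 62, 63 and 64. The CCR1-KO libraries were close together, and the WT libraries were spread widely, with replicate 64 on top. The difference passed narrowly (log2 fold change -2.50 ± 0.59, adjusted p = 0.049) and in 0 of the 6 fits that left out a library. Col1a2 (ENSMUSG00000029661, chromosome 6, 4504814 to 4541544, plus strand) had 11.8, 10.8 and 12.3 CPM in CCR1-KO, against 37.2, 47.8 and 154.0 CPM in WT. Again the groups did not overlap and WT replicate 64 stood apart. Col1a2 fell by 2.77 on the log2 scale (SE 0.51, adjusted p = 0.024) and passed in 3 of the 6 fits.

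Type V collagen regulates fibre thickness, and none of its 3 chains passed the threshold. Col5a2 had 3.81, 3.69 and 2.26 CPM in CCR1-KO, against 6.08, 6.23 and 19.5 CPM in WT (log2 fold change -1.70 ± 0.48, adjusted p = 0.079). Col5a1 had 8.24, 8.93 and 9.03 CPM in CCR1-KO, against 12.3, 15.0 and 29.1 CPM in WT (log2 fold change -1.11 ± 0.30, adjusted p = 0.070). For both genes the groups did not overlap, and the log2 fold change of Col5a2 was -0.92 without WT replicate 64. For Col5a3 they did, at 73.6, 58.2 and 45.5 CPM in CCR1-KO and 82.4, 71.8 and 62.5 CPM in WT (log2 fold change -0.29 ± 0.19, adjusted p = 0.39). It did not follow WT replicate 64, which was the lowest of the WT libraries. Per length, Col5a3 was the second most abundant collagen transcript of the CCR1-KO group, at 7.34 ± 2.86 FPKM, and the fourth in WT, at 10.7 ± 0.980 FPKM (SD, n = 3).

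Of the remaining fibrillar chains Col11a2 passed the test. Col27a1, a fibrillar chain best known from cartilage, had 34.5, 40.1 and 87.6 CPM in CCR1-KO and 51.6, 38.1 and 29.5 CPM in WT (adjusted p = 0.49). CCR1-KO replicate 67 alone set the higher mean: the log2 fold change of 0.44 became -0.10 without it. Col11a2 (ENSMUSG00000024330, chromosome 17, 34039437 to 34066685, plus strand), a type XI chain of cartilage fibres, was the one gene that rose. Its CCR1-KO libraries held 110, 169 and 120 reads (1.38, 2.59 and 2.01 CPM), against 46, 66 and 42 reads in WT (0.559, 0.745 and 0.477 CPM). Its groups did not overlap (log2 fold change 1.74 ± 0.36, adjusted p = 0.032), and the call held in 1 of the 6 fits. Its level was low, at 0.233 ± 0.0586 FPKM in CCR1-KO and 0.0867 ± 0.0208 FPKM in WT. Its partner chain Col11a1 had at most 23 reads in a library and Col24a1 at most 39, and neither passed. Col2a1, the main cartilage collagen, had 0, 5 and 10 reads in CCR1-KO and 0 in every WT library. The Col11a2 stretch precedes its RefSeq start, which lies upstream of the start in the table. Its capitals mark TATAAA and CCGCCC, the reverse complement of the GC box GGGCGG bound by Sp1.

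Col11a2, chr17:34038888-34039137, plus strand: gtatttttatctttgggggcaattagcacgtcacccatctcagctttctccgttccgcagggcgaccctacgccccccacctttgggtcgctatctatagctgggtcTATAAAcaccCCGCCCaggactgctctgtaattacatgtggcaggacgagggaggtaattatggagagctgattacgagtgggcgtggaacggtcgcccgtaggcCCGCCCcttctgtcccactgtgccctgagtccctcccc

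**Figure D2:**
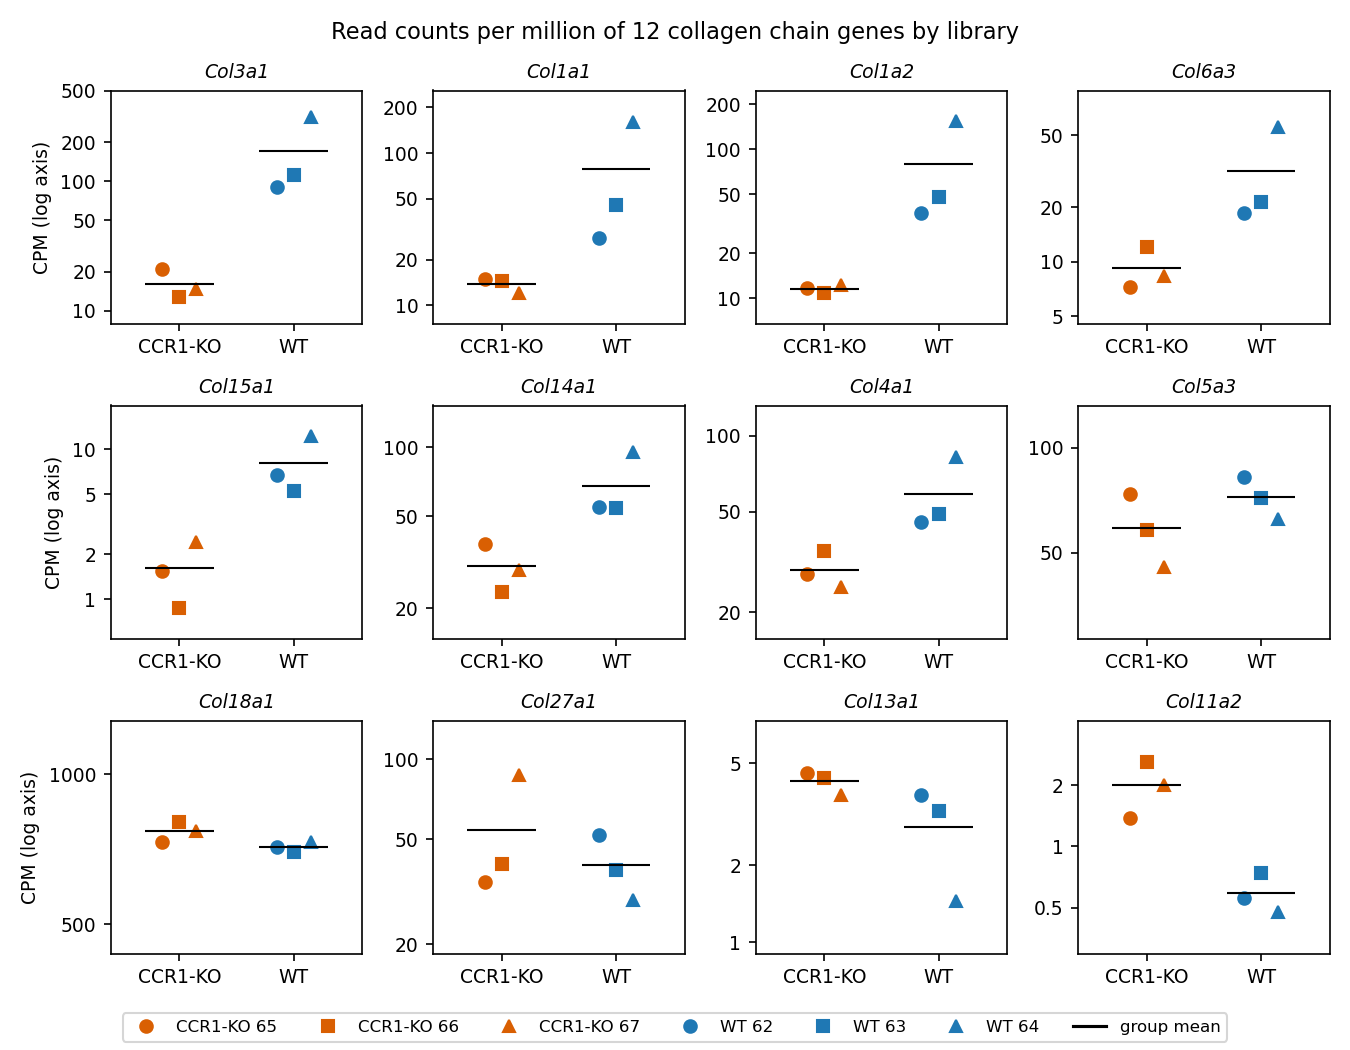
CPM on a log axis for 12 collagen chain genes, with CCR1-KO left of WT, 1 symbol per library and a line at the group mean. WT replicate 64 is the highest library for Col3a1, Col1a1, Col1a2, Col6a3, Col15a1, Col14a1 and Col4a1, and the lowest for Col27a1, Col13a1 and Col11a2.

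Of 8 basement membrane chains 1 fell, where 3.61% of all genes fell, and 7 did not pass (median log2 fold change -1.25). Col15a1 (ENSMUSG00000028339, chromosome 4, 47208161 to 47313167, plus strand) encodes a proteoglycan collagen at the boundary of basement membrane and fibres. It had 1.54, 0.873 and 2.41 CPM in CCR1-KO, against 6.73, 5.29 and 12.2 CPM in WT. The groups did not overlap, and Col15a1 fell (log2 fold change -2.33 ± 0.44, adjusted p = 0.027). The call held in 2 of the 6 fits that left out a library.

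Type IV collagen, the network former of basement membranes, is built mostly from Col4a1 and Col4a2. Col4a1 had 28.2, 34.8 and 25.1 CPM in CCR1-KO, against 45.5, 48.7 and 82.2 CPM in WT, which did not overlap and just missed the threshold (log2 fold change -1.002 ± 0.24, adjusted p = 0.052). Col4a2 had 14.4, 27.4 and 25.9 CPM in CCR1-KO and 30.8, 27.1 and 44.7 CPM in WT, which overlapped (log2 fold change -0.60 ± 0.28, adjusted p = 0.23). The chains lie head to head on chromosome 8, and in the table their models overlap by 22 bases at the start (Col4a1, 11198423 to 11312826, minus strand; Col4a2, 11312805 to 11449287, plus strand). This stretch, shown because the annotated starts of both chains bound it, reads as follows on the plus strand. Motifs are not marked in it, although it holds the GC box letters GGGCGG.

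Col4a1 and Col4a2 overlap, chr8:11312805-11312826: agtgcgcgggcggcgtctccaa

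The minor type IV chains, which replace the major ones in specialised membranes such as that of the kidney glomerulus, were each under 0.5 FPKM on average in both groups. Col4a5 had 0.488, 1.03 and 1.72 CPM in CCR1-KO, against 2.73, 2.21 and 4.15 CPM in WT (log2 fold change -1.50 ± 0.47, adjusted p = 0.10). Col4a3, Col4a4 and Col4a6 had at most 112 reads in a library, with log2 fold changes from -1.56 to -0.61, not past the threshold. The exons of Col4a3 share 563 bases with an antisense gene, so its reads are uncertain without strand.

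Col18a1 (ENSMUSG00000001435, chromosome 10, 77052178 to 77166548, minus strand), the precursor of endostatin and a collagen that hepatocytes make, was the most abundant collagen transcript in both groups. It had 731.9, 801 and 771 CPM in CCR1-KO, against 714, 699 and 731.7 CPM in WT. The groups nearly touched, since CCR1-KO replicate 65 and WT replicate 64 were nearly equal, and the log2 fold change was 0.10 ± 0.12 (adjusted p = 0.65). Its sign depended on scaling: it was -0.20 with library totals alone, where the median of all genes was -0.30, so that Col18a1 lay slightly above the median of all genes in both fits.

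All 5 tested beaded filament chains had negative fold changes from the 6 libraries (median log2 fold change -1.59). Of these 1 passed, where 3.61% of all genes fell. Col6a3 (ENSMUSG00000048126, chromosome 1, 90765923 to 90843971, minus strand), the large chain that carries endotrophin at its end, had 7.26, 12.0 and 8.30 CPM in CCR1-KO, against 18.6, 21.4 and 55.0 CPM in WT. It fell, narrowly (log2 fold change -1.79 ± 0.42, adjusted p = 0.049), and passed in 0 of the 6 fits that left out a library. Its assembly partners did not pass: Col6a1 had 6.43, 7.72 and 9.93 CPM in CCR1-KO, against 14.1, 17.1 and 41.3 CPM in WT (log2 fold change -1.59 ± 0.40, adjusted p = 0.059). Col6a2 had 2.98, 5.33 and 4.28 CPM in CCR1-KO, against 8.97, 9.80 and 29.0 CPM in WT (log2 fold change -1.93 ± 0.47, adjusted p = 0.054). For these 3 chains the groups did not overlap. Without WT replicate 64 the log2 fold changes were -1.12 for Col6a3, -0.96 for Col6a1 and -1.16 for Col6a2. The alternative chains Col6a5 and Col6a6 had at most 146 reads in a library and overlapped between groups. Their fold changes turned positive without WT replicate 64, at 0.19 and 1.54. Col6a4 had no read outside WT replicate 64.

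Of the 12 tested genes of the other types, Col14a1 fell, where 3.61% of all genes fell, and 11 did not pass (median log2 fold change -0.94). Col14a1 (ENSMUSG00000022371, chromosome 15, 55307750 to 55520803, plus strand), a fibril-associated collagen that decorates type I fibres, had 38.1, 23.5 and 29.4 CPM in CCR1-KO, against 55.1, 54.3 and 94.9 CPM in WT. It fell (log2 fold change -1.17 ± 0.26, adjusted p = 0.043), with the call kept in 1 of the 6 fits. The following genes were under 1 FPKM and are given because their groups did not overlap, a choice made after their values were seen. The fibril-associated Col12a1 had 2.00, 0.965 and 1.19 CPM in CCR1-KO, against 3.29, 2.81 and 5.74 CPM in WT (adjusted p = 0.061). Col16a1, of the same subclass, had 2.44, 2.01 and 2.86 CPM in CCR1-KO, against 4.04, 4.26 and 8.32 CPM in WT (adjusted p = 0.072). The short-chain collagen Col8a1, known from vessel walls, had 0.488, 0.123 and 0.368 CPM in CCR1-KO, against 0.959, 1.04 and 2.47 CPM in WT (adjusted p = 0.073), and Col8a2 likewise missed the threshold (log2 fold change -1.92 ± 0.69, adjusted p = 0.14, and -0.98 without WT replicate 64).

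A few of these genes rested on 1 library or pointed the other way. Col28a1 had 0, 5 and 4 reads in CCR1-KO and 12, 12 and 140 reads in WT, so that WT replicate 64 held most of its reads. Its log2 fold change of -3.72 ± 1.34 (adjusted p = 0.14) became -1.56 without that library. The transmembrane collagen Col13a1 had 4.60, 4.40 and 3.76 CPM in CCR1-KO, against 3.75, 3.25 and 1.44 CPM in WT (log2 fold change 0.60 ± 0.35, adjusted p = 0.33). Col20a1 had 75, 196 and 73 reads in CCR1-KO, against 38, 70 and 20 reads in WT (log2 fold change 1.80 ± 0.60, adjusted p = 0.12), and its exons share 79 bases with a gene on the same strand, so its reads are uncertain. The remaining 4 tested genes (Col7a1, Col9a3, Col23a1 and Col25a1) had at most 83 reads in a library and overlapped between groups.

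Col18a1 made up a larger share of the collagen transcripts in CCR1-KO libraries. Summed deposited FPKM over all 41 chains was 135.9, 119.9 and 105.0 in CCR1-KO replicates 65, 66 and 67, against 159.4, 169.5 and 260.9 in WT replicates 62, 63 and 64. Col18a1 made up 74.9% ± 1.02 of it in CCR1-KO and 54.7% ± 10.6 in WT (SD, n = 3), the lowest share being 42.5% in WT replicate 64. Type I and III chains together made up 3.80%, 2.89% and 2.94% in CCR1-KO, against 9.93%, 13.3% and 28.1% in WT. These shares are a description of the members and were not tested.

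By class, fibrillar chains summed to 15.9 ± 3.26 FPKM in CCR1-KO and 54.6 ± 31.9 FPKM in WT (SD, n = 3), a ratio of 0.292. Beaded filament chains summed to 2.57 ± 0.167 FPKM in CCR1-KO and 10.6 ± 7.33 FPKM in WT, a ratio of 0.243. The other types summed to 5.31 ± 1.54 FPKM in CCR1-KO and 12.5 ± 4.56 FPKM in WT, a ratio of 0.425. Basement membrane chains summed to 96.5 ± 11.4 FPKM in CCR1-KO and 119.0 ± 12.1 FPKM in WT, a ratio of 0.811, and without Col18a1 to 6.40 ± 0.813 FPKM in CCR1-KO and 15.4 ± 5.65 FPKM in WT. Deposited FPKM carries no correction for composition; divided by the TMM factor of each library, the fibrillar ratio was 0.365 and the basement membrane ratio 1.01. The direction of the fibrillar, beaded filament and other sums did not depend on this scaling, and that of the basement membrane sum did. Without WT replicate 64 the deposited FPKM gave a ratio of 0.404 for beaded filament chains and 0.44 for fibrillar chains.

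**Figure D3:**
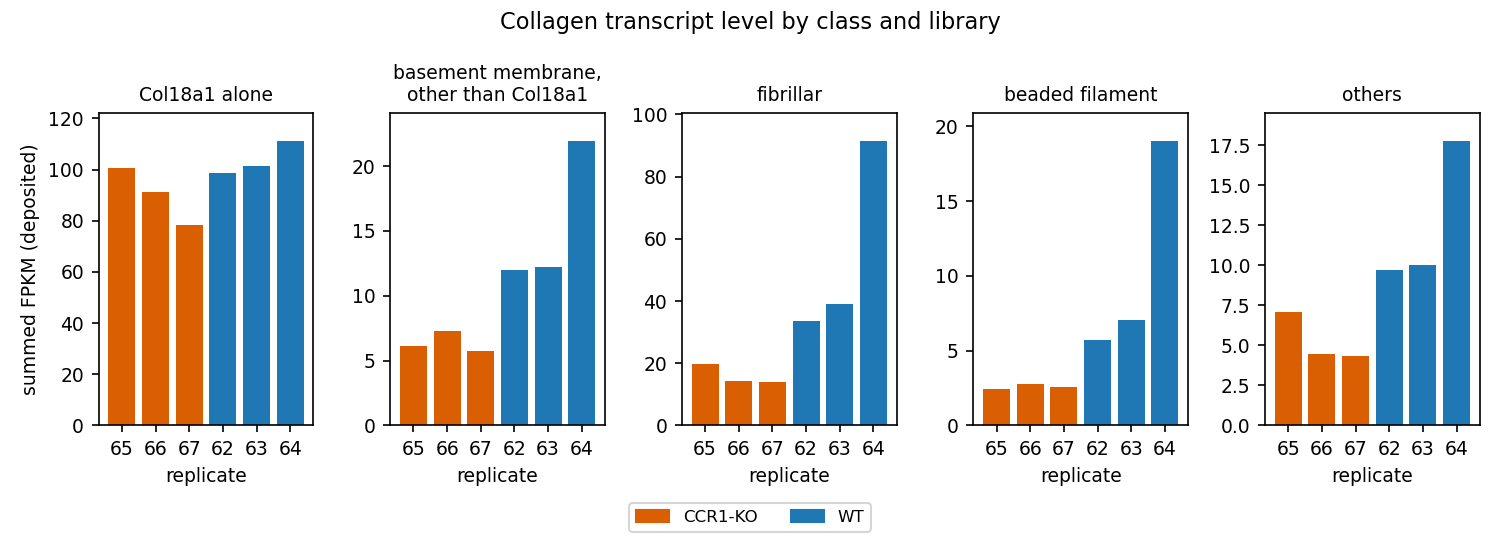
Summed deposited FPKM per library for Col18a1, the other basement membrane chains, fibrillar chains, beaded filament chains and the other types, with CCR1-KO replicates left of WT replicates and a separate vertical axis from 0 for each panel. Col18a1 is nearly level, at 78.5 to 100.6 FPKM in CCR1-KO and 98.5 to 111.0 FPKM in WT, while WT replicate 64 is the tallest bar in every panel.

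Within a library the ratio of chains does not depend on library scaling. The ratio of Col3a1 to Col1a1 FPKM was 0.932, 0.598 and 0.811 in CCR1-KO, against 2.17, 1.62 and 1.30 in WT, with no overlap, the one separation among 8 ratios computed. The ratio was not tested. That of Col1a1 to Col1a2, whose chains join in type I collagen, was 2.39, 2.52 and 1.89 in CCR1-KO and 1.41, 1.82 and 1.98 in WT, which overlapped. The ratio of Col4a1 to Col4a2 was 1.74, 1.12 and 0.857 in CCR1-KO and 1.31, 1.60 and 1.63 in WT, also overlapping. In type VI collagen, Col6a3 to Col6a2 was 1.71, 1.57 and 1.32 in CCR1-KO and 1.44, 1.52 and 1.32 in WT, with the groups overlapping. Col6a1 to Col6a2 was 4.15, 2.76 and 4.38 in CCR1-KO and 2.99, 3.31 and 2.71 in WT, overlapping as well.

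**Figure D4:**
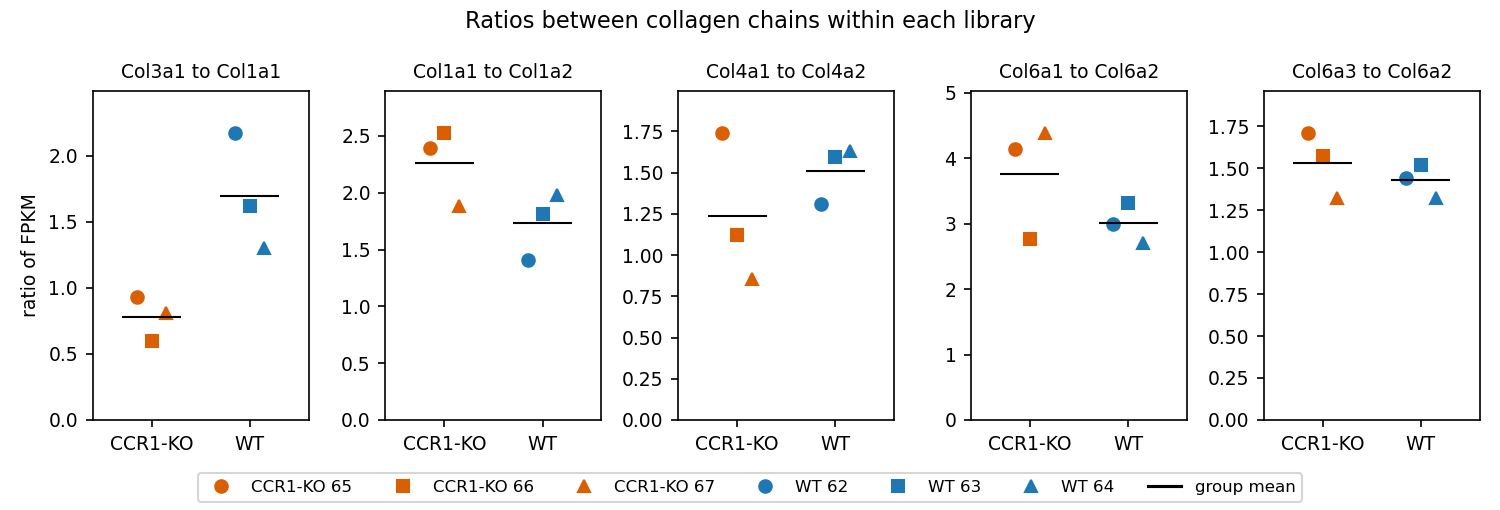
Ratio of the FPKM of 2 collagen chains within each library, with CCR1-KO left of WT and a line at the group mean. The groups separate for Col3a1 to Col1a1, at 0.598 to 0.932 in CCR1-KO and 1.30 to 2.17 in WT, and overlap for the other 4 ratios.

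WT replicate 64 stood apart from the other WT libraries in collagen transcripts. Among the WT libraries it was the highest for 27 of the 35 tested chains, 77.1%, where it was so for 33.2% of all genes tested. Its CPM over the mean of WT replicates 62 and 63 had a median of 1.99 over the 35 chains and 0.998 over all genes. The ratio was 4.37 for Col1a1, 3.62 for Col1a2, 3.16 for Col5a2, 3.12 for Col3a1, 3.09 for Col6a2, 1.75 for Col4a1, 1.04 for Col18a1 and 0.810 for Col5a3. Without WT replicate 64 the median log2 fold change of the 35 chains was -0.77, in place of -1.17, and 24 of the 35 were negative. Col3a1 then gave -2.64, Col1a2 -1.87, Col15a1 -1.91 and Col1a1 -1.41. The signs of these 4 values were unchanged in each of the 6 fits that left out a library.

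**Figure D5:**
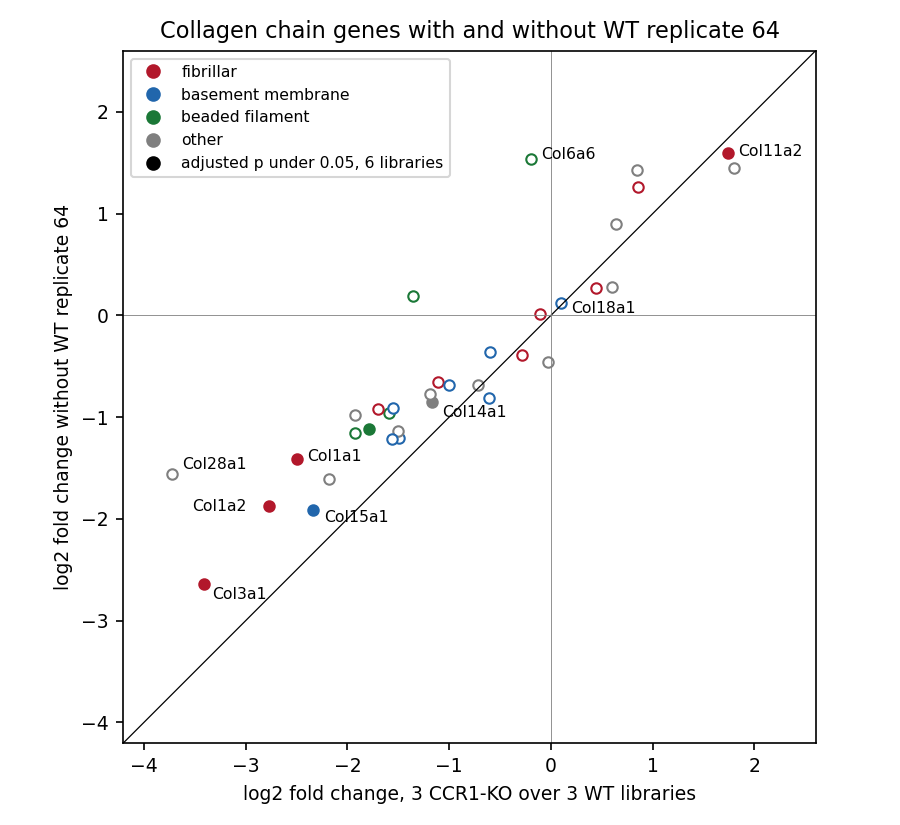
Log2 fold change of CCR1-KO over WT for 35 collagen chain genes from all 6 libraries, on the horizontal axis, against the same value without WT replicate 64, on the vertical axis, with the line of equality. Col3a1 moves from -3.41 to -2.64 and Col1a1 from -2.50 to -1.41, while Col18a1 stays near 0 and Col11a2 stays above 1.

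Several collagen genes lie beside each other in the genome. Apart from Col4a1 and Col4a2, the head-to-head pairs were Col4a4 and Col4a3 on chromosome 1, 71 bases apart, and Col4a6 and Col4a5 on the X chromosome, 1308 bases apart. Both members of each of these 3 pairs had negative fold changes, and none passed the threshold. Of the 8 basement membrane chains 7 were negative, and of all 17729 genes tested 8839 were. Col3a1 and Col5a2 lie tail to tail on chromosome 1, 24614 bases apart, at -3.41 and -1.70. Col6a2 and Col6a1 lie on the same strand of chromosome 10, 85161 bases apart, at -1.93 and -1.59. Col6a6, Col6a5 and Col6a4 follow each other on the same strand of chromosome 9, 27917 and 28810 bases apart. Their values were -0.20 for Col6a6 and -1.36 for Col6a5, and Col6a4 was not tested.

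Short promoter motifs were counted, on both strands, in the 250 bases before the start in RefSeq. Windows were found for 33 of the 41 collagen chain genes (36 windows) and for 5 of the 7 called genes; Col1a1 and Col14a1 had no entry. GGGCGG was in 22 of the 36 windows, 61.1%, and in 32.7% of all 32851 windows. CCAAT was in 33.3% of collagen windows and 33.8% of all windows, TATAAA in 11.1% of collagen windows and 12.4% of all, and CATTCC in 11.1% of collagen windows and 12.6% of all. Col3a1 held 1 TATAAA, 117 bases before its start, and 1 CATTCC. Col1a2 held 2 GGGCGG and 1 CCAAT, but its window lies inside the gene model of the table and 127 of its 250 bases are annotated Col1a2 exon. Col11a2 held 2 GGGCGG and 1 TATAAA, and Col15a1 and Col6a3 held none of the 4 motifs.

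Genes that fold, trim, cross-link or bind collagen were examined in 5 lists. Of 88 such genes among those deposited, 79 were tested: 16 fell, 2 rose and 61 did not pass (median log2 fold change -0.60). Of all genes tested, 3.61% fell and 2.83% rose, and these shares apply to the count of each list below. Among the WT libraries, replicate 64 was the highest for 77.2% of the 79 partner genes and for 33.2% of all genes. The fits that left out 1 library tested 81 or 82 of the partner genes. Without WT replicate 64 the test called 4 of 82 lower, with 0.579% of all genes. It called 17 lower without CCR1-KO replicate 65 (7.67% of all genes), 1 without CCR1-KO replicate 66 (0.996%), 3 without CCR1-KO replicate 67 (1.19%), 5 without WT replicate 62 (0.655%) and 1 without WT replicate 63 (0.361%). In the list of folding, hydroxylation and secretion, 2 of 20 genes tested fell and 18 did not pass (median -0.21). These were Crtap, a part of the prolyl 3-hydroxylation complex, with means of 3.27 CPM in CCR1-KO and 6.47 CPM in WT (log2 fold change -0.98 ± 0.21, adjusted p = 0.038), and P3h3, a prolyl hydroxylase family member (log2 fold change -0.92, adjusted p = 0.045). The summed level of this list, set mostly by P4hb, was 1632 to 2080.1 CPM in CCR1-KO and 1743 to 1916 CPM in WT, which overlapped.

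In the list of procollagen cleavage and cross-linking, 4 of 13 genes tested fell and 9 did not pass (median -0.92). Pcolce, the enhancer of procollagen C-proteinase, had 4.23 ± 0.378 CPM in CCR1-KO and 13.1 ± 4.25 CPM in WT (log2 fold change -1.63, adjusted p = 0.014). Adamts2, which removes the amino-terminal propeptide, had means of 4.18 CPM in CCR1-KO and 13.01 CPM in WT (log2 fold change -1.64 ± 0.31, adjusted p = 0.027). The lysyl oxidase family member Loxl2 (log2 fold change -1.78, adjusted p = 0.016) and the transglutaminase Tgm2 (log2 fold change -0.92, adjusted p = 0.029) were the other 2.

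Among the WT libraries, replicate 64 was the highest for each of the 16 tested fibril-associated proteins. Of these, 5 fell and 11 did not pass (median -1.10). The small proteoglycans Dcn (decorin, 108.7 ± 7.93 CPM in CCR1-KO and 169 ± 17.3 CPM in WT, adjusted p = 0.031) and Bgn (biglycan, 77.1 ± 14.7 CPM in CCR1-KO and 144.7 ± 28.4 CPM in WT, adjusted p = 0.037) were among them. So were Sparc, a collagen-binding matricellular protein (log2 fold change -1.60, adjusted p = 0.017), Tnxb, a tenascin (log2 fold change -1.34, adjusted p = 0.037), and Dpt, or dermatopontin (log2 fold change -1.93, adjusted p = 0.048).

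Of 18 tested partners of basement membrane collagens 5 fell, 1 rose and 12 did not pass (median -0.68). Nid1, which links laminin to type IV collagen, had 9.30 ± 0.578 CPM in CCR1-KO and 31.7 ± 9.84 CPM in WT (log2 fold change -1.77, adjusted p = 0.0096). Its relative Nid2 (log2 fold change -0.98), the perlecan gene Hspg2 (log2 fold change -0.78) and the laminin chains Lamb1 (log2 fold change -0.89) and Lamc1 (log2 fold change -0.76) fell too. The laminin chain Lama3 rose, with 6.47 ± 2.65 CPM in CCR1-KO and 1.31 ± 0.695 CPM in WT (log2 fold change 2.30, adjusted p = 0.026). Of 12 tested collagen receptors and uptake genes 0 fell, 1 rose and 11 did not pass (median -0.40). At an unadjusted p under 0.05, 2 were lower, with 13.2% of all genes, and 1 higher, with 11.3% of all genes. DESeq2 after adjustment gave the same numbers, with 7.70% of all genes lower and 6.67% higher. The collagen-binding integrin chain Itga10 had 5.23 ± 0.843 CPM in CCR1-KO and 1.19 ± 0.401 CPM in WT (log2 fold change 2.14, adjusted p = 0.012).

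Markers of cells that make collagen, and of other cells that a liver sample may hold, were summed per library beside these results. Beside the counts of markers that fell, 3.61% of all genes tested fell and 2.83% rose. In bulk RNA, fewer cells of a type and less RNA per cell cannot be told apart. Of 14 tested stellate cell markers 5 fell, among them Lrat, Reln, Cygb and Colec11, and 9 did not pass (median log2 fold change -0.26). Of the 14 fold changes 9 were negative and 5 positive. The list summed to 246.7 to 309.8 CPM in CCR1-KO and 308 to 323.4 CPM in WT. Ecm1 made up 30.0% of that level and did not pass, with means of 98.6 CPM in CCR1-KO and 78.4 CPM in WT (adjusted p = 0.29). Of 8 tested myofibroblast markers Timp1 fell and 7 did not pass (median -0.99). Timp1 was near the floor in CCR1-KO, at 0.19, 0.17 and 0 CPM. In WT it had 1.40, 1.23 and 4.17 CPM, with replicate 64 on top (adjusted p = 0.038). The list summed to 12.9 to 31.4 CPM in CCR1-KO and 35.2 to 57.0 CPM in WT. Tpm2, which did not pass (adjusted p = 0.24), made up 51.9% of that level. Acta2, the smooth muscle actin of myofibroblasts, had 2.15, 1.13 and 3.03 CPM in CCR1-KO and 2.25, 2.19 and 7.90 CPM in WT, with WT replicate 64 on top (adjusted p = 0.34). Of 8 tested portal fibroblast markers Entpd2, Cd34 and Mfap4 fell and 5 did not pass (median -1.32), with sums of 8.75 to 12.2 CPM in CCR1-KO and 20.7 to 42.1 CPM in WT, the highest in WT replicate 64. Cd34 and Mfap4 each passed narrowly (adjusted p = 0.049). Their means were low, at 0.723 and 1.02 CPM in CCR1-KO and 2.70 and 4.45 CPM in WT. The part of these cells in the collagen differences was not tested.

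Markers of other cells included 3 further called genes, all lower, where 3.61% of all genes tested fell. Where counts at an unadjusted p under 0.05 are given, 13.2% of all genes were lower and 11.3% higher at that threshold. Of 8 tested bile duct markers 2 fell, among them Spp1, and 6 did not pass (median -0.85). The list summed to 53.7 to 68.2 CPM in CCR1-KO and 142.2 to 215.6 CPM in WT. These sums came mostly from Spp1, with means of 41.8 CPM in CCR1-KO and 141.6 CPM in WT, so they describe mainly that gene. Of 12 tested endothelial markers Plvap fell and 11 did not pass (median -0.33), with sums of 233 to 303.6 CPM in CCR1-KO and 266.8 to 364.7 CPM in WT, the lowest of WT in replicate 64. Of 10 tested macrophage markers 0 passed (2 were lower and 0 higher at an unadjusted p under 0.05), with sums of 164.8 to 383.2 CPM in CCR1-KO and 246.8 to 355.3 CPM in WT. Of 7 tested smooth muscle markers 0 passed (1 lower and 0 higher at an unadjusted p under 0.05), with sums of 12.2 to 14.9 CPM in CCR1-KO and 14.7 to 23.5 CPM in WT. Mesothelial markers, of the liver capsule, summed to 2.25 to 3.75 CPM in CCR1-KO and to 3.02, 4.46 and 13.2 CPM in WT replicates 62, 63 and 64, so they too were highest in WT replicate 64; of 5 tested, 0 passed (0 at an unadjusted p under 0.05). Adipocyte markers summed to 16.3, 0.398 and 0.368 CPM in CCR1-KO and 26.3, 25.2 and 14.3 CPM in WT, mostly from Cfd, with Adipoq at or near 0; of 2 tested, 0 passed (1 lower at an unadjusted p under 0.05). Skeletal muscle markers summed to 0.538 to 1.69 CPM in CCR1-KO and 0.284 to 1.11 CPM in WT, with 0 of 1 tested past the threshold (0 at an unadjusted p under 0.05). Cartilage and bone markers, nearly all Sox9, summed to 1.52 to 3.06 CPM in CCR1-KO and 3.02 to 3.86 CPM in WT, with 0 of 2 tested past the threshold (0 at an unadjusted p under 0.05). The gut epithelium list, nearly all Lgals4, gave 52.8 to 56.4 CPM in CCR1-KO and 29.9 to 44.9 CPM in WT, with 0 of 2 tested past the threshold (1 higher at an unadjusted p under 0.05). Of the lists with 0 called by edgeR, DESeq2 called 1 macrophage and 1 adipocyte marker lower, and 0 in the smooth muscle, mesothelial, skeletal muscle, cartilage and gut lists. Of all genes DESeq2 called 7.70% lower and 6.67% higher. The part of these cells in the collagen differences was not tested.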

How the data were processed

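Raw read counts and FPKM values per gene were used as the authors deposited them, in 1 table of 6 libraries. The submitters' processing notes name HISAT2 2.2.1, StringTie 2.1.6 and cutadapt 1.9, beside edgeR and DESeq2, and do not say what each did. They list GRCh38, but the identifiers are of mouse; all 41 members were found in GENCODE M21 (GRCm38), 36 with the same start, end and strand. GENCODE names 3 more such genes (Col17a1, Col19a1 and Col26a1), not analysed here. Libraries were made with dUTP per the labels' protocols; the strand setting of the counting was not stated.

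The main test was edgeR 4.0.16 (R 4.3.3), glmQLFit and glmQLFTest on the counts across all genes kept by filterByExpr (minimum count 10, minimum total 15), with TMM factors of 0.779 to 1.17 and Benjamini-Hochberg adjustment. Alternatives used DESeq2 1.42.0 and limma 3.58.1 on log2(FPKM + 0.5), for genes of at least 0.5 FPKM in 3 libraries. Replicates carry different numbers in the titles, and their counts differed beyond sampling noise in every pair (chi-square per degree of freedom at least 68.7). The test was checked on counts drawn from known means. The members and lists were chosen with earlier results of these data known. Genes were named if they passed the threshold or reached 1 FPKM in either group, and list genes if they passed. Col4a5, Col8a1, Col8a2, Col12a1, Col13a1, Col16a1, Col20a1, Col28a1, Acta2, Ecm1 and Tpm2 were named after their values were seen. Some list genes that passed are not reported here by name. Counts behind low values limit precision, as 1 read was 0.0113 to 0.0167 CPM.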

Additional observations from a re-analysis of the deposited data

How the results depend on the processing

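The count of collagen chain genes lower and higher in CCR1-KO was 6 and 1 of 35 tested. It was 16 and 2 with DESeq2 and 12 and 0 with library totals alone, both of 35. With no filter on low counts it was 3 and 1 of 41. Limma on log2(FPKM + 0.5) gave 7 and 0 of 17, and 9 and 0 of 17 with a pseudocount of 0.1. Col11a2 was not among those 17, so these fits could not call it. Limma without a filter gave 0 and 0 of 41 (17 and 1 at an unadjusted p under 0.05, by limma). Leaving out 1 library gave 0 to 6 lower and 0 to 1 higher. Over all genes the counts were 640 lower and 501 higher. They were 1366 and 1182 with DESeq2 and 857 and 219 with library totals alone, as before of 17729 tested. With no filter they were 421 and 314 of 27912. Limma gave 1088 and 223 of 12500, and 969 and 217 of 12500 with a pseudocount of 0.1. Without a filter limma gave 172 and 67 of 27515. Leaving out 1 library gave 66 to 1409 lower and 36 to 1010 higher. Of the partner genes 16 were lower and 2 higher. They were 31 and 4 with DESeq2 and 25 and 2 with library totals alone, as before of 79 tested. With no filter they were 9 and 2 of 88. Limma gave 22 and 1 of 57, and 19 and 1 of 57 with a pseudocount of 0.1. Without a filter limma gave 2 and 0 of 88. Leaving out 1 library gave 1 to 17 lower and 0 to 2 higher, of 81 or 82 tested. Col18a1 reversed to -0.20 with library totals alone and to -0.21 in each limma fit, and Col27a1 reversed to -0.10 without CCR1-KO replicate 67 (range -0.10 to 0.68 over the libraries left out). The basement membrane sum moved to a ratio of 1.01 with FPKM over TMM factors, an alternative chosen after seeing the data. The cause was not tested. The median of all genes shifted to -0.30 with library totals alone and to -0.23 with limma. No paired analysis was possible because the groups share no replicate number. With 3 libraries a group, differences near the threshold could not be settled.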
